A study of Mus musculus with 13 samples.

Results

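Acetylation of histone H3 at lysine 27 (H3K27ac) was mapped by sequencing across 13 ChIP libraries from macrophages grown out of C57BL/6 bone marrow, and 168 regions carried a called island of the mark in all 6 libraries of a knockdown experiment and in none of the 7 libraries of a cytokine experiment. These 168 were taken from 39569 union regions, made by merging every overlapping island of the 13 libraries. They were chosen by the presence of called islands, so the contrast between the experiments is a description here and was not tested. Each condition had 1 library, and all cells were on day 7 of differentiation in medium conditioned by L929 cells. The knockdown experiment held cells labelled scramble, shJunB and shCEBP-beta, each untreated and after 4 h of IFNg at 100 ng/ml. The cytokine experiment held 1 untreated library and 6 treated ones, with IL-4 at 10 ng/ml, the same dose of IFNg, or their combination, each for 2 h and for 4 h. Its labels mention no shRNA. The labels of the knockdown libraries give neither the vector nor the way the shRNA entered the cells, so "shRNA-treated" is all that the group names support. The experiment, the shRNA procedure and any difference in chromatin preparation cannot be told apart between the 2 sets of libraries.

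H3K27ac marks active promoters and enhancers, where acetyltransferases such as p300 and CBP deposit it and deacetylases remove it. Most promoters of widely expressed genes and of many developmental regulators lie in CpG islands, stretches that keep their CpG dinucleotides because they are mostly unmethylated. Junb is a subunit of the AP-1 transcription factor and Cebpb encodes C/EBP-beta, a basic leucine zipper factor of the myeloid lineage. IFNg is an activating cytokine of macrophages that changes macrophage enhancers and promoters within hours.

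Promoter sequence describes only regions that hold a coding gene start, 89 of the 163 regions with start positions. The RefSeq promoter table (GRCm38.p6, 250 bases before to 50 bases after each start) placed 101 promoters of 89 coding genes inside the regions. Their 250 upstream bases are printed for the 5 genes whose region had the most reads, for Kbtbd8, where the mark rose with IFNg, and for Gp1ba, the promoter poorest in CpG, the last of these chosen after its count was seen. Capitals mark CpG dinucleotides, and all run 5′ to 3′ on the strand of the gene.
Kdm5b (a histone H3 lysine 4 demethylase; chr1:134559928-134560177, plus strand): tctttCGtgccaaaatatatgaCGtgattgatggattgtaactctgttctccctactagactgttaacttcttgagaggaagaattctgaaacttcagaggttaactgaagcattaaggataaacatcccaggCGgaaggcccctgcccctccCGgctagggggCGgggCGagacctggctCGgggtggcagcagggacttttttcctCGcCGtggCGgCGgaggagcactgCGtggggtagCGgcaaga
Ctxn1 (cortexin, a neuronal membrane protein; chr8:4259275-4259524, minus strand): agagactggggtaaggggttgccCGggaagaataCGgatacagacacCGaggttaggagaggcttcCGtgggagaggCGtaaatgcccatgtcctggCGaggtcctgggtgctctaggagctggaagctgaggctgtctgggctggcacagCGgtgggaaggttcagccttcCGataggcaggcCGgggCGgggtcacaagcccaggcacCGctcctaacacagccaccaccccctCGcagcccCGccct
Cep170b (a relative of the centrosomal protein Cep170; chr12:112721924-112722173, plus strand): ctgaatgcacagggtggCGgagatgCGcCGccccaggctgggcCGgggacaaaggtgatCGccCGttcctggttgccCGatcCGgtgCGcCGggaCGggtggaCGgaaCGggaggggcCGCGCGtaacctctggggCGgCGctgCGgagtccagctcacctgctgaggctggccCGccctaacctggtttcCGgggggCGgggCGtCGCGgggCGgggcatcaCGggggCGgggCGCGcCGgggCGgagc
Rasgrp2 (an exchange factor for the GTPase Rap1; chr19:6399625-6399874, plus strand): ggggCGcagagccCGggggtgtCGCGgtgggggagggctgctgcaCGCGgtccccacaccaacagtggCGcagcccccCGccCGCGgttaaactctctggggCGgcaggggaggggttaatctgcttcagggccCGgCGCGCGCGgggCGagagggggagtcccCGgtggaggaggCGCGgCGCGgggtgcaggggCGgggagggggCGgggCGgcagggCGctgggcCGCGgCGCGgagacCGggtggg
Fgfrl1 (an FGF receptor relative without a kinase domain; chr5:108693979-108694228, plus strand): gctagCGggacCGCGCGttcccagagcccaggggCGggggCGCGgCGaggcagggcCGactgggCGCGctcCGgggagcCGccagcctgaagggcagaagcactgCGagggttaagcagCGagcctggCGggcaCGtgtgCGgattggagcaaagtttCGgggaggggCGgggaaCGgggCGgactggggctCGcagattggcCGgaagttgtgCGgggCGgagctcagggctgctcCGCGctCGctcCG
Kbtbd8 (an adaptor of the Cul3 ubiquitin ligase; chr6:95117630-95117879, plus strand): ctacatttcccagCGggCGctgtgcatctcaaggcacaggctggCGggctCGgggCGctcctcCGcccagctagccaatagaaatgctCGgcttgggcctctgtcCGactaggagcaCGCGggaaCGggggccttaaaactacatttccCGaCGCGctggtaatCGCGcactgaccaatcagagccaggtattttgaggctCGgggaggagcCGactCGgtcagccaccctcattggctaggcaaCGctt
Gp1ba (the platelet receptor subunit glycoprotein Ib alpha; chr11:70638872-70639121, plus strand): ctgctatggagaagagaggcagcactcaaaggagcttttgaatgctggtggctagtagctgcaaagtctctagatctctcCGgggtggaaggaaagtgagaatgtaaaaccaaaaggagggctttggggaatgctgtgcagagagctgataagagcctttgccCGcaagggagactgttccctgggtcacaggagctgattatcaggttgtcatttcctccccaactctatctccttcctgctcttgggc
The Cep170b stretch held 32 CpG, Rasgrp2 31 and Fgfrl1 30. Kbtbd8 had 20, Kdm5b and Ctxn1 13 each, and Gp1ba 2.

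Promoters inside the regions were dense in CpG. Over the whole window of 300 bases they had a median of 26 CpG, with a range of 3 to 55 and quartiles of 18 and 34. The median was 13 over all 21263 coding promoters in the table, 21 over the 10821 promoters inside regions called in all 13 libraries, and 4 over the 8758 promoters inside no region. The ratio of observed to expected CpG was above 0.6, a usual mark of a CpG island, in 87 of the 101 promoters (86.1%). The same held for 47.6% of all coding promoters, 71.5% of those in regions called in all 13 libraries and 17.9% of those in no region. The median GC content was 69.7% against 56.3% over all coding promoters and 60.7% in regions called in all 13 libraries. How reads of different GC content were recovered in the 2 experiments was not tested.

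**Figure D1:**
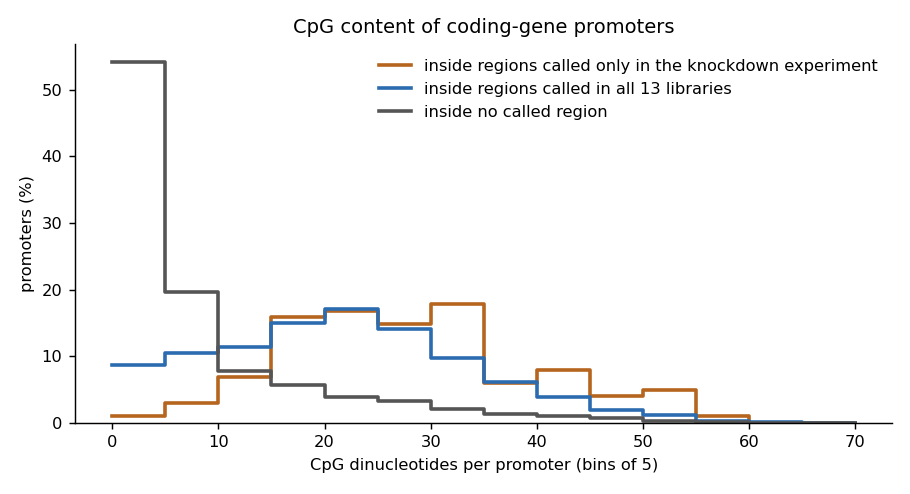
CpG dinucleotides per 300-base promoter (x axis, bins of 5) against the percentage of promoters (y axis), for 101 promoters inside the regions called only in the knockdown experiment, 10821 in regions called in all 13 libraries and 8758 in no region. The first set peaks furthest to the right, with a median of 26 against 21 and 4.

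Binding motifs were searched as letters on both strands of the same 300-base windows. TGANTCA, the AP-1 motif, stood in 2 of 101 promoters (1.98%), against 6.99% of all coding promoters. TTGCNNAA, a C/EBP motif, stood in 5 (4.95% against 10.2%), and the IRF motif, GAAA repeated after 2 bases, in 0 (against 3.35%). GGGANTTCC, for NF-kB, stood in 1 (0.99% against 1.84%), and TATAAA, the TATA box, in 8 (7.92% against 12.6%). GAGGAAG, for PU.1, stood in 14 (13.9% against 13.6%) and CACGTG, the E-box, in 8 (7.92% against 7.84%). Thus 5 of the 7 motifs had a lower share than over all coding promoters, in windows that also had a higher GC content; the part of GC content was not tested. The PU.1 and E-box letters had nearly the same share in both. Against promoters in regions called in all 13 libraries, shares were lower for AP-1 (5.00% there), C/EBP (8.16%), IRF (3.32%), NF-kB (2.51%) and the E-box (10.2%). The PU.1 share was nearly the same (13.8% there), and the TATA share was slightly higher (6.78% there). The 8 promoters with TATAAA include overlapping windows of Rgmb, and the 8 with CACGTG include overlapping windows of Fbxo10. These are letter matches in short windows, and no factor was mapped here.

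The regions lay mostly at the starts of coding genes. Start positions were used for 163 of the 168 regions, and 89 of these (54.6%) held a coding start, against 8803 of 38229 (23.0%) over all regions, 47.4% of the regions called in all 6 knockdown libraries and 52.1% of those called in all 13. Another 57 (35.0%) lay inside a coding gene, 2 held only a noncoding start, 5 lay inside a noncoding gene and 10 (6.13%) were intergenic, against 22.4% intergenic over all regions. Among the 34 regions of the opposite pattern, called in all 7 cytokine libraries and in no knockdown library, 0 of 32 with start positions held a coding start. The share grew with the number of knockdown libraries that called a region absent from the cytokine experiment: 4.58% with 1 library, 7.23% with 2, 13.3% with 3, 21.8% with 4, 26.9% with 5 and 54.6% with 6. In regions absent from the knockdown experiment it lay between 0% and 4.08% at every number of cytokine libraries.

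**Figure D2:**
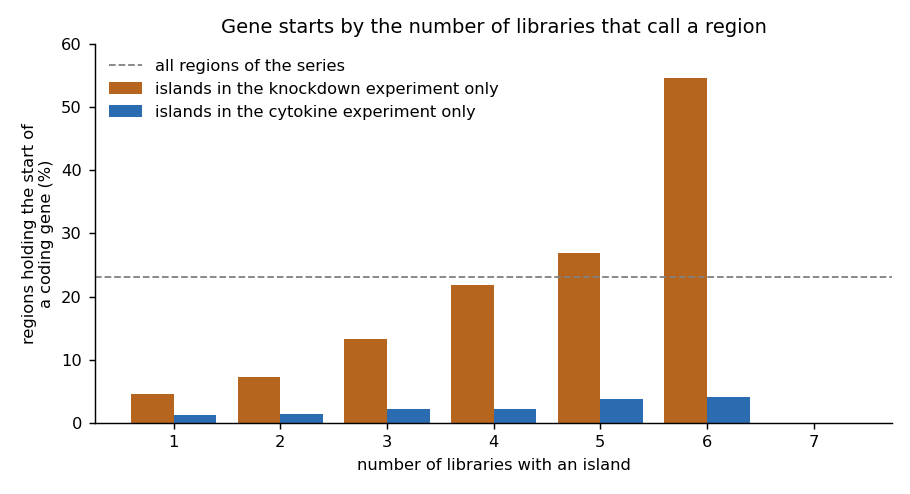
Percentage of regions holding a coding gene start (y axis) by the number of libraries with an island (x axis), for regions called only in the knockdown experiment (brown), only in the cytokine experiment (blue) and over all regions (dashed line, 23.0%). The knockdown-only bars climb from 4.58% to 54.6%, and the cytokine-only bars end at 4.08% with 6 libraries and 0% with 7.

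The regions were short. Their median length was 2.9 kb, with a range of 1.2 to 20.2 kb and a total of 631.4 kb, against a median of 5.4 kb over all regions and 11.6 kb over regions called in all 13 libraries. At like length the share of starts was similar: among the regions of the middle length range, 2.35 to 4.2 kb, 49 of 84 (58.3%) held a coding start, against 14.7% of all regions and 64.6% of the regions called in all 13 libraries at that length. In 165 of 168 regions the islands of the 6 libraries shared a common core, while the regions inside Cd82, Rgs3 and Cacna1d had none. The median core length was 1.2 kb. The coding start lay within that core in 78 of the 89 regions with a start, at a median of 0.394 kb from the centre of the region. The nearest region called in all 13 libraries was at a median of 17.0 kb, and 44 of the 168 had one within 5 kb.

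The mark was weak at these sites beside regions called in all 6 knockdown or all 13 libraries. All levels are ChIP reads summed over a region's islands and divided by size factors, called normalised reads. The mean over the 6 libraries ran from 46.4 to 370 per region with a median of 84.8, and 163 of the 168 regions were below 200. Per kb of called island the median was 41.0 normalised reads, against 67.2 over the 17047 regions called in all 6 knockdown libraries. At the middle length range it was 40.5, against 96.6 in regions called in all 13 libraries, and the upper quartile of the first (49.1) lay below the lower quartile of the second (69.6). Per region at that length the median was 81.6 normalised reads. All regions of that length had 77.6 over the knockdown libraries that called them, so weakness was not particular to the 168. Within each library the authors' own fold over control had a median of 2.41 to 2.79 in these islands and 2.65 to 3.06 in the others. At all 29680 island coordinates shared between libraries the listed control reads were equal, so the libraries appear to share the same control. The part of a shared control in which islands were called was not tested. The control held a median of 8.72 reads per kb here and 11.6 in regions called in all 13 libraries. In bulk chromatin, fewer cells carrying the mark and less of it per cell cannot be told apart.

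Absence from the cytokine files is not a measurement of 0, since those files list called islands alone. The cytokine libraries held 21.7 to 37.4 M reads and the knockdown libraries 14.3 to 29.5 M, and the depths of the 2 sets overlapped. The share of reads inside islands was 77.1 to 80.0% in the cytokine libraries and 65.1 to 73.0% in the knockdown libraries, while the islands covered 176 to 206 Mb and 218 to 244 Mb. Called territory was thus wider, and the share of reads within it lower, in every knockdown library. At the edge of the rule, 167 regions had islands in all 6 knockdown and exactly 1 cytokine library, with a median of 115 normalised reads. A further 160 had islands in 5 knockdown and 0 cytokine libraries, with a median of 77.7 over the libraries that called them. Coding starts lay in 21.1% and 26.9% of these neighbours of the rule.

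The regions varied across the 6 libraries slightly more than regions of the experiment as a whole. The highest level was a median of 1.89 times the lowest, against 1.73 over the 17047 regions; it was over 2 times in 69 regions and over 3 times in 19. The median level was 85.4 in untreated scramble, 83.4 in untreated shJunB and 91.4 in untreated shCEBP-beta cells, and with IFNg it was 81.8, 66.3 and 80.0. The shJunB library with IFNg was the lowest of the 6 for 74 regions, and the untreated shCEBP-beta library the highest for 49. The steadiest region, at the start of Elovl7, a fatty acid elongase, had 56.2 to 64.6 normalised reads across all libraries.

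**Figure D3:**
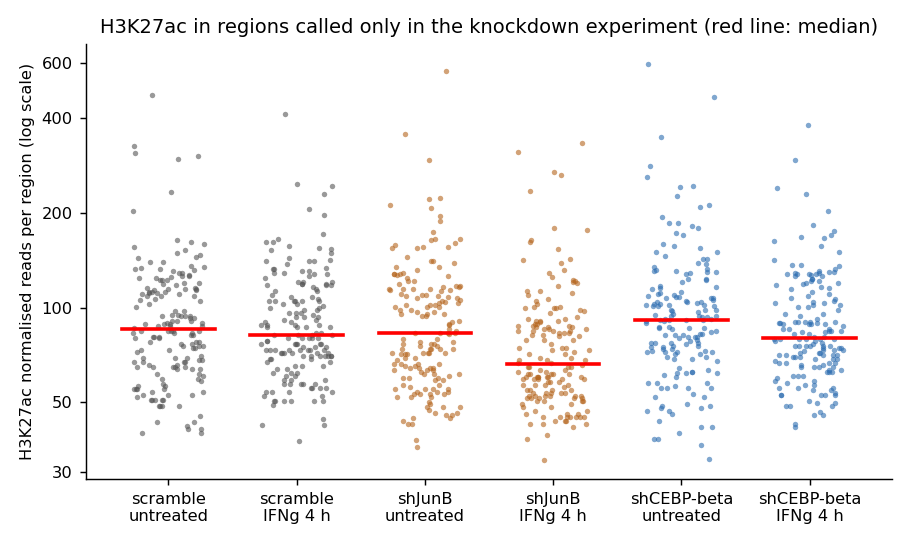
Normalised H3K27ac reads per region (y axis, log scale) in the 6 knockdown libraries; each point is 1 of the 168 regions and the red line is the median. The medians lie between 66.3 (shJunB with IFNg) and 91.4 (untreated shCEBP-beta), and the point clouds of all 6 libraries overlap.

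The regions with the most reads were a mix of promoter and gene-body sites. The highest, 20.2 kb at chr13:45237601-45257800 (mm10) inside the noncoding gene Gm34466, had 296, 564 and 469 normalised reads in untreated scramble, shJunB and shCEBP-beta cells, and 198, 314 and 380 with IFNg. Each IFNg library was below its untreated partner, but the 2 groups overlapped. Kdm5b followed after Tenm4, at its start (chr1:134558801-134563400), with 311, 357 and 282 untreated and 414, 235 and 295 with IFNg, so no direction was shared by the pairs. Rbpms, an RNA-binding protein, had 326, 222 and 260 untreated and 244, 177 and 231 with IFNg within the gene (chr8:33927601-33932200). Rapgef3, an exchange factor for Rap GTPases, had 147, 128 and 159 untreated within the gene (chr15:97738801-97746600) and 142, 132 and 176 with IFNg. Per kb of island, where lengths no longer count, the Patj start led with 114 normalised reads (Patj is a scaffold of epithelial polarity), followed by Kdm5b and by Hace1, a ubiquitin ligase, at 88.8 and 88.7.

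The 10 intergenic regions included 2 of those with the most summed reads, both long (11.8 and 9.4 kb). Per kb of island they had 27.3 (near Traf3) and 26.4 (near Atg5) normalised reads, below the lower quartile of the 168 (33.9). One at chr12:111142001-111153800, 12.5 kb from Traf3, an adaptor of TNF receptor and Toll-like receptor signalling, had 136 and 103 normalised reads in scramble cells, untreated and with IFNg. It had 211 and 334 in shJunB and 244 and 241 in shCEBP-beta cells, all above scramble. The other, at chr10:44396001-44405400 and 31.7 kb from the autophagy gene Atg5, is described with IFNg. The nearest region called in all 13 libraries lay 0.601 kb from it and 1.001 kb from the region near Traf3. The most remote of the 10 intergenic regions lay 301.8 kb from its nearest coding gene, Prl5a1. The remaining long regions were inside genes: Cd82 and Rgs3, a regulator of G protein signalling, at 13 kb each, and Cd47 at 10.6 kb. Cd47, the ligand of the phagocytosis-blocking receptor SIRPA, had 118, 223 and 105 normalised reads untreated and 231, 264 and 150 with IFNg; each pair was higher with IFNg, at an adjusted p of 0.0578.

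With IFNg, fewer of these regions were called than the background share, and more of the calls were losses of the mark than gains. By edgeR's quasi-likelihood test with Benjamini-Hochberg adjustment over 17047 regions, at an adjusted p below 0.05, 9 of the 168 rose (5.36%) and 19 fell (11.3%). Over all 17047 regions the shares were 22.0% and 22.9%, and over the 7014 regions in the same range of mean reads 16.7% and 19.3%. That range runs from 46.4 to 370 normalised reads, while the median of the 168, 84.8, stood at the 2.85th percentile of the 17047. The 7014 are therefore not matched to the 168 in reads. The part of low counts in the lower shares of the 168 was not tested. The median log2 change was −0.15, against −0.01 over all regions. Without regard to a test, 24 regions were higher with IFNg in all 3 pairs and 65 lower (14.3% and 38.7%), against 34.6% and 36.5% over all. The pairs differed: 80 of the 168 were higher with IFNg in scramble, 45 in shJunB and 66 in shCEBP-beta cells. Over all 17047 regions these counts were 8572, 8107 and 8463. The lean towards losses was thus slight in scramble cells and largest in the shJunB pair. At an unadjusted p of 0.05, 42 of the 168 passed (14 higher, 28 lower, or 25%), against 53.2% of all regions and 45.0% of those in the same range of reads. The 3 pairs stand in for replicates with 2 residual degrees of freedom, and the labels do not say whether they were separate cultures. Leaving out 1 library gave 3 to 7 higher and 6 to 11 lower regions, the fewest (3 and 6) without either shCEBP-beta library, against 16.1 to 17.5% higher and 15.7 to 18.1% lower over all. DESeq2 gave 4 and 8, against 20.2% and 19.8% over all.

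The regions that rose included Bcr, whose product regulates Rac GTPases. At its start (chr10:75058601-75064200) it had 69.2, 48.3 and 52.2 normalised reads in untreated scramble, shJunB and shCEBP-beta cells and 162, 154 and 106 with IFNg. All IFNg libraries lay above all untreated ones, a log2 change of 1.30 (SE 0.19, edgeR adjusted p = 0.00481). Lipa, the lysosomal acid lipase, had 43.2, 77.7 and 81.0 untreated and 157, 142 and 130 with IFNg inside the gene, again without overlap (log2 1.1, SE 0.27, adjusted p = 0.0229). Amer2, a Wnt pathway regulator, Espn, an actin-bundling protein, and Slc6a20a, an amino acid transporter, rose by log2 1.04, 0.98 and 0.89. Of the 13 alternative settings, Bcr passed in 12, Lipa and Amer2 in 8, Espn in 7 and Slc6a20a in 6. These settings are not independent. When 1 library is left out, its partner no longer bears on the IFNg change, so leaving out either library of a pair gave nearly the same estimate. With DESeq2 the adjusted p was 0.0552 for Espn and 0.105 for Slc6a20a, and with control reads subtracted it was 0.0890 for Lipa in edgeR. Chad, a cartilage matrix protein, Mbnl2, a splicing factor, Kbtbd8 and the intergenic region near Atg5 completed the 9, with log2 changes of 0.87, 0.73, 0.71 and 0.79. Near Atg5 the levels were 67.0, 165 and 143 untreated and 155, 270 and 203 with IFNg, so the groups overlapped although each pair rose.

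The largest fall was at Cd82, a tetraspanin of the cell surface. Inside that gene (chr2:93429401-93442400) the levels were 304, 195 and 350.0 untreated and 129, 85.5 and 62.6 with IFNg, without overlap (log2 −1.63, SE 0.30, adjusted p = 0.00948). No part of the Cd82 region was called in all 6 libraries, so its levels sum islands at differing positions. The nearest region called in all 13 libraries lay 0.801 kb away. Tenm4, a teneurin cell adhesion protein, had the second most reads of the 168: 475, 296 and 596 untreated and 247, 125 and 183 with IFNg (log2 −1.30, SE 0.18, adjusted p = 0.00382). Fam222a and Cbx2, a Polycomb protein, changed by log2 −1.33 and −1.17. Rasgrp2 had 203, 115 and 243 untreated and 128, 44.9 and 126 with IFNg (log2 −0.97), where the groups overlapped because untreated shJunB cells were below 2 of the IFNg libraries. Ctxn1 had 233, 174 and 186 untreated and 126, 93.2 and 88.5 with IFNg (log2 −0.95), without overlap. Of the 89 regions with a coding start 5 rose and 8 fell, and of the 74 others with start positions 4 rose and 10 fell.

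**Figure D4:**
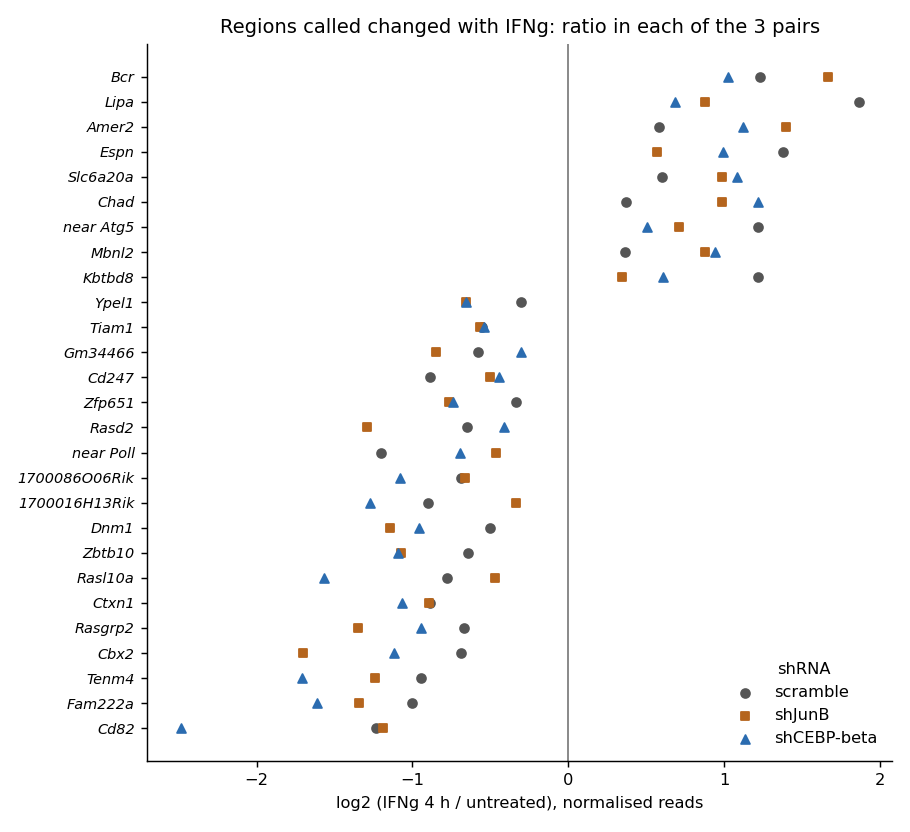
Log2 ratio of normalised reads, IFNg over untreated (x axis), in the scramble, shJunB and shCEBP-beta pairs for 27 of the 28 regions called changed with IFNg (y axis, named by the gene touched or nearest). All 3 points of each region lie on the same side of 0, and those of Bcr and Cd82 lie furthest out by fitted change.

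The called length moved with most of these changes. The Cd82 islands covered 12.4, 7.6 and 11.0 kb untreated and 6.2, 4.0 and 2.6 kb with IFNg, while their density stayed between 20.8 and 31.8 normalised reads per kb. At Bcr the islands covered 3.2, 1.6 and 1.6 kb untreated and 5.6, 3.8 and 3.4 kb with IFNg. With the called length as an offset in the same edgeR fit, 1 region was higher and 4 were lower, against 1898 (11.1%) and 1481 (8.69%) over all 17047. Of the 28 regions called on reads, 2 were also called per kb: Kbtbd8 (log2 0.93 per kb, adjusted p = 0.00515) and Zbtb10, a zinc finger protein (log2 −1.04, adjusted p = 0.00612). Kbtbd8 had 44.3, 53.3 and 46.6 normalised reads per kb untreated and 93.7, 81.1 and 102 with IFNg, and Zbtb10 84.3, 90.0 and 97.5 untreated and 33.7, 42.8 and 57.2 with IFNg. Neither gene's groups overlapped. The other 3 called per kb, all lower, were Cyp2u1, a cytochrome P450, Dusp15, a phosphatase, and Nfix, a nuclear factor I transcription factor. Several regions called on reads changed sign per kb, among them Lipa (−0.16), Slc6a20a (−0.02), Mbnl2 (−0.16), Chad (−0.008), Ctxn1 (0.31) and Cd247 (0.087). Cd82 and Bcr had −0.30 (adjusted p = 0.274) and 0.26 (adjusted p = 0.427).

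**Figure D5:**
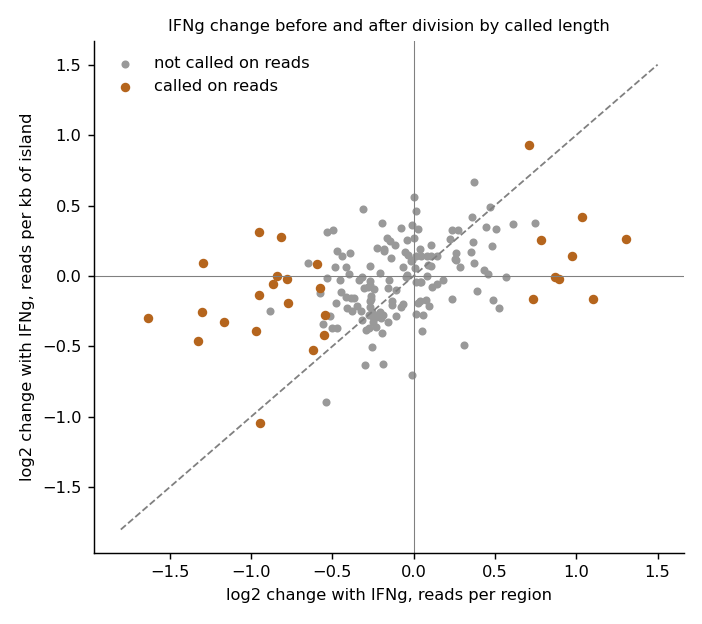
Log2 change with IFNg in reads per region (x axis) against the change in reads per kb of called island (y axis) for the 168 regions; brown points are the 28 called on reads, and the dashed line marks equality. Most brown points lie near 0 on the y axis, and Kbtbd8 (0.93) and Zbtb10 (−1.04) lie furthest from it.

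No region was called with shJunB or shCEBP-beta by edgeR. For shJunB against scramble over both states, 0 of 168 regions and 0% of the 17047 were called; 21 of the 168 passed an unadjusted p of 0.05 (7 higher, 14 lower, or 12.5%), against 15.8% of all and 13.8% of those in the same range of reads. The smallest adjusted p among the 168 was 0.154, and DESeq2 called 1 of them higher, the region near Traf3 (log2 1.17, adjusted p = 0.0460; edgeR 1.16, SE 0.29, adjusted p = 0.183). Over all regions with an adjusted p, DESeq2 called 407 of 16055 higher (2.54%) and 209 lower (1.30%). The median log2 difference was −0.16, against −0.01 over all regions, with −0.03 in untreated cells and −0.34 with IFNg. In both states 65 regions were below scramble (38.7%) and 23 above (13.7%), against 31.3% and 30.2% over all regions. For shCEBP-beta against scramble, which uses the same scramble libraries, 0 of 168 and 0% of all were called. Here 16 passed the unadjusted p (11 higher, 5 lower), or 9.52%, against 7.81% of all and 7.36% of those in the same range of reads; the smallest adjusted p was 0.494 and DESeq2 called 0 of the 168, against 0.491% higher and 0.00664% lower over all. The median was 0.00, and 49 regions were above scramble in both states (29.2%) and 53 below (31.5%), near the 28.6% and 27.6% over all regions.

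In shJunB cells with IFNg, density and called length lay at the low end of the 6 libraries. Per kb the median over the 168 regions was 37.7 normalised reads in that library and 38.6 to 42.7 in the other five, and it was the lowest library per kb for 40 regions. The median called length was 1.8 kb there and in scramble cells with IFNg, and 2.0 kb in the other four. The IFNg median in the shJunB pair was a log2 ratio of −0.28, against −0.01 in scramble and −0.10 in shCEBP-beta cells. With 1 library per condition, this difference between pairs could not be tested. The Junb region itself had 6232, 6270 and 6333 normalised reads in untreated scramble, shJunB and shCEBP-beta cells and 7234, 7060 and 7818 with IFNg. The Cebpb region had 7564, 6864 and 7743 untreated and 12629, 12118 and 12202 with IFNg. Acetylation at a gene does not measure its RNA, so these values do not check the knockdowns.

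The regions touched 191 of 21887 coding genes (0.873%), of which 131 also touched another region and 89 another that was called in all 13 libraries. Of 24 macrophage identity genes 22 had a region in all 13 libraries. So did 18 of 18 housekeeping genes, and from 0 of 8 NK cell to 7 of 10 dendritic cell genes in the lists of other cell types. Of all coding genes with start positions, 8850 of 17492 had a promoter inside such a region, so the count alone does not establish the cell type. Of the macrophage identity genes 0 touched one of the 168. The same count was 0 of 30 interferon-stimulated genes, 0 of 29 NF-kB and inflammatory genes, 0 of 24 genes of alternative activation, 0 of 7 C/EBP genes and 0 of 18 housekeeping genes. Lists of T cell, B cell, NK cell, dendritic cell, neutrophil, mast cell, erythroid, progenitor, stromal, endothelial, epithelial, neuronal and muscle markers gave 0 as well. In all, 26 of 30 lists gave 0 and 4 gave 1 gene each, or 4 of 539 listed genes (0.742%). That share is near the share of all coding genes, so the lists do not set these regions apart.

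Those 4 genes were transcription factors and an ion channel. Bach2, a repressor of the AP-1 superfamily, had 109, 154 and 107 normalised reads untreated and 90.0, 91.0 and 78.5 with IFNg inside the gene, with log2 −0.50 at an adjusted p of 0.0646. Myb, a progenitor transcription factor, had 80.0, 63.5 and 98.4 untreated and 76.9, 60.3 and 71.6 with IFNg at its start. Hey1, a repressor downstream of Notch, had 109, 208 and 212 untreated and 108, 59.2 and 121 with IFNg. Cacna1d, an L-type calcium channel, had 90.8, 91.0 and 123 untreated and 105, 43.8 and 79.5 with IFNg. In all of them except Cacna1d in scramble cells, the IFNg library was below its untreated partner, and none passed the test.

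Groups formed after the values were seen describe the rest, and their counts are to be read against the 22.0% higher and 22.9% lower over all regions. Of 16 transcription and chromatin regulators 1, Cbx2, fell with IFNg and 0 rose. They include the homeobox genes Six4 and Shox2, Tcf7l1, a Wnt pathway repressor, Prdm13, and Smarcd3 and Dpf3 of the BAF remodelling complex, with mean levels of 107, 64.8, 58.7, 77.7, 67.4 and 111 normalised reads. Of 10 regulators or members of small GTPase families, Bcr rose and Rasgrp2, Rasl10a, Rasd2 and Tiam1 fell, the last 3 by log2 −0.95, −0.77 and −0.55. Rasl10a passed in 7 of the 13 alternative settings, Rasd2 in 5 and Tiam1 in 4. Of 5 immune surface proteins Cd82 and Cd247, the T cell receptor zeta chain, fell. The Cd247 call (log2 −0.60, edgeR adjusted p = 0.0466) passed in 2 of the 13 settings, and per kb its value was 0.087. Of 6 neuronal signalling genes Tenm4 and Dnm1, a dynamin, fell (log2 −0.86 for Dnm1), and of 5 receptors and receptor phosphatases, among them Fgfr3 and Tyro3, none passed the test.

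The regions were spread over the autosomes, with 0 of 168 on the X chromosome, against 510 of the 17047 regions called in all 6 knockdown libraries (2.99%). Chromosome 4 held the most, 19 (11.3% against 5.98%). It also held the densest stretch, 3 regions within 214.6 kb (chr4:133038201-133252800) at Ahdc1, the start of Gpr3, a constitutively active receptor, and Map3k6, a kinase; 9 regions called in all 6 knockdown libraries lay in that span. Gpr3 had 87.5, 113 and 80.1 normalised reads untreated and 141, 101 and 137 with IFNg. Map3k6 had 48.6, 63.5 and 47.0 untreated and 80.2, 86.6 and 60.6 with IFNg, each pair higher, at an adjusted p of 0.0717. Other stretches of 1 Mb held at most 2 of the regions.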

How the data were processed

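Reads were aligned with Bowtie2 2.2.6 and enriched islands called with SICER 1.1 on mm10 (GRCm38), per the submitters' processing notes. For every library, the deposited islands come with raw counts of ChIP and control reads, as the authors counted them, without normalization. The p-value and FDR of each island, and its fold as a ratio to the scaled control, are the authors' own. Islands were merged where they overlapped by at least 1 bp. Counts were summed per region and divided by size factors, the medians of ratios over the 14347 regions called in all 13 libraries. The fits used edgeR 4.0.16 (R 4.3.3) on 17047 regions with islands in all 6 knockdown libraries, with shRNA and IFNg as additive terms. A run on simulated counts used a common spread for all regions and no shRNA differences, so it does not vouch for the calls here. Alternatives included DESeq2 1.42.0. Genes and promoters came from RefSeq (GRCm38.p6), with 1 kb either side of a gene counted as touching. The classes inside a gene and intergenic used overlap with the gene alone, without the 1 kb. Start positions on chromosome 18 were not used here.

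The members and gene lists were chosen with earlier results of these data known. Named regions are the 12 with the most reads, the 6 longest, the 5 largest called changes each way per comparison, those touching a listed gene and the densest stretches; other names were chosen after their values were seen, and 1 region called lower with IFNg is counted but not reported here by name. P-values measure departures of single libraries from the additive fit. For IFNg this is how far its change differs between the shRNA pairs. Technical spread and an effect of a knockdown on the IFNg response cannot be told apart there. Depth was 14.3 to 37.4 M reads per library, recovered from the fold column.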

Additional observations from a re-analysis of the deposited data

How the results depend on the processing

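The number of regions was 168 and stayed within 1.5 times of it with stricter FDR or fold, with islands within 1 kb or abutting islands merged (the last chosen after seeing the data), and without any single knockdown library (177 to 240). It rose to 328 with islands asked for in at least 5 of the 6 knockdown libraries, to 335 with up to 1 cytokine library allowed, and to 367 with the untreated and IFNg 4 h libraries alone standing for the cytokine experiment. Counts of regions called with IFNg (9 higher, 19 lower) fell to 4 and 8 with DESeq2, to 1 and 4 per kb of called length, and to between 3 and 7 higher and 6 and 11 lower without 1 library. Lipa (−0.16), Slc6a20a (−0.021) and several other called regions, among them Ctxn1 (0.31), changed sign per kb. The shJunB count of 0 higher became 1 with DESeq2; the counts for shJunB lower and for shCEBP-beta stayed at 0 under every alternative run, 0 to 0 without 1 library. Fewer samples enter each fit without 1 library, and for IFNg the partner of that library no longer counts, so a whole pair is in effect removed. The cause of the other changes was not tested, apart from the division by length. The IFNg fit is paired through its shRNA term, and the labels give no replicate numbers from which another block could be made. Depth and 2 residual degrees of freedom limit what a comparison of these weak regions can show.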
